A study of Mus musculus with 24 samples.

Results

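The second day of Activin A treatment was compared between Setd3 knock-out and wild-type mouse embryonic stem cells. The measure is the genotype by day interaction, that is, a gene's log2 change to day 4 from day 3 in knock-out cells minus the same change in wild-type cells. It rests on 12 of the 24 libraries in the series: 3 each of knock-out cells at day 4, knock-out cells at day 3, wild-type cells at day 4 and wild-type cells at day 3. All were of the CJ9 mouse embryonic stem cell line, kept with LIF on inactivated embryonic fibroblasts and then separated from them. They spent 2 days in serum-free endoderm differentiation medium and were passaged as a single cell suspension into the same medium with Activin A, so both days compared lie after the addition of Activin A. The knock-out was made with CRISPR-Cas9 and is 1 line, so loss of Setd3 cannot be told apart from anything else that differs between these lines. Polyadenylated RNA was sequenced and counted per gene. The study's question was whether SETD3 works through the canonical Wnt pathway when endoderm forms. The labels do not say whether the libraries of a group came from separate cultures, so p-values measure the spread between these libraries, which may be technical.

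In the mouse embryo, epiblast cells leave pluripotency through the primitive streak, where Wnt3 and Nodal act together and switch on T, Eomes and Mixl1. Strong Nodal signalling favours the anterior streak, marked by Gsc, Lhx1 and Foxa2, and then definitive endoderm, marked by Sox17 and Cxcr4; in culture, Activin A stands in for Nodal. Canonical Wnt signals act through beta-catenin and the TCF and LEF factors, with Axin2, Sp5 and Lef1 among their direct targets. SETD3 is known as the histidine methyltransferase of actin.

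These 12 libraries held 18756912 to 24244958 gene counts each, and 17144 genes passed the filter on low counts. Levels below are CPM, library-scaled counts (TMM) on the usual per-megaread scale, given for replicates 1, 2 and 3 of a group. Setd3 itself (ENSMUSG00000056770, GRCm38 chr12:108106431-108179314, minus strand) was at 29.6, 29.1 and 31.1 CPM in knock-out libraries at day 4, against 31.7, 33.7 and 29.4 CPM at day 3. It was at 127, 124 and 120.0 CPM in wild-type libraries at day 4, against 124, 116 and 121 CPM at day 3. The groups did not overlap on either day, and the Setd3 interaction was -0.12 ± 0.09 (edgeR adjusted p = 0.37). The stem cell marker Lin28a was at 578 to 697 CPM in all 4 groups. The markers Pou5f1, Nanog and Sall4, given below, were less even, and Pou5f1 and Nanog fell in the wild-type. The 17 fibroblast feeder genes together made 58.5 to 69.5 CPM in the knock-out and 52.1 to 58.5 CPM in the wild-type at day 4. At day 3 they made 79.5 to 103 CPM in the knock-out and 73.0 to 77.4 CPM in the wild-type. Sox2, which embryonic stem cells need, and some other genes such as Igf2 are listed at 0 in every library, so a gene listed at 0 throughout is not read as lacking expression. Replicate 1 of the wild-type at day 3 stood apart from its group by higher endoderm genes (Cer1 at 182 CPM, against 67.8 and 31.1 CPM in the other 2 libraries). Wild-type libraries at day 4 were spread about as widely, with replicate 1 highest in genes such as Sfrp1 and Fzd5, given below. Among knock-out libraries at day 4, replicate 3 was highest and replicate 2 lowest in genes such as T, Lhx1 and Sox17, also given below.

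Over the step, 4079 of 17144 genes differed in their change between the genotypes at an adjusted p under 0.05 (23.8%; quasi-likelihood test of edgeR, p-values adjusted after Benjamini and Hochberg). The interaction was positive in 2166 of them (12.6%), meaning that the gene rose more or fell less in the knock-out, and negative in 1913 (11.2%). It was at least 2-fold in 1490 (8.69%). Without replicate 1 of the wild-type at day 3, 3990 genes were called, and without replicate 1 of the wild-type at day 4, 3393 were. Knock-out cells changed less than wild-type cells over this day: 987 genes rose (5.76%) and 999 fell (5.83%) in the knock-out, against 3843 that rose (22.4%) and 3960 that fell (23.1%) in the wild-type. The knock-out's change was smaller in size than the wild-type's in 3595 of the 4079 called genes (88.1%) and in 69.6% of all tested genes.

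The called genes were sorted by the genotype gap, the log2 fold change of knock-out over wild-type within a day. At day 4, 54% of tested genes differed between the genotypes, against 41.2% at day 3. A gap changed sign if it was called on both days with opposite signs (358 of the 4079 genes). Otherwise it narrowed if it was called at day 3 and smaller in size at day 4 (880), and widened if it was called at day 4 and smaller in size at day 3 (2763). The other 78 fell in no class. These classes use the same libraries as the interaction and are a description of it. Where the knock-out was lower at day 3 and the gap narrowed (465 genes), the wild-type alone changed in 288, the knock-out alone in 88, and both in opposite directions in 40. In all, 335 of these 465 fell in the wild-type and 134 rose in the knock-out, so a fall of the wild-type was the more common way for the gap to close. Where the knock-out was higher at day 3 and the gap narrowed (415 genes), 295 rose in the wild-type and 109 fell in the knock-out. Widening was almost always a change of the wild-type: 1428 of the 1523 genes that ended higher in the knock-out fell in the wild-type, and 1187 of the 1240 that ended lower rose in the wild-type. On the CPM scale the sign of the interaction was the opposite in 41 of the 4079 genes.

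**Figure D1:**
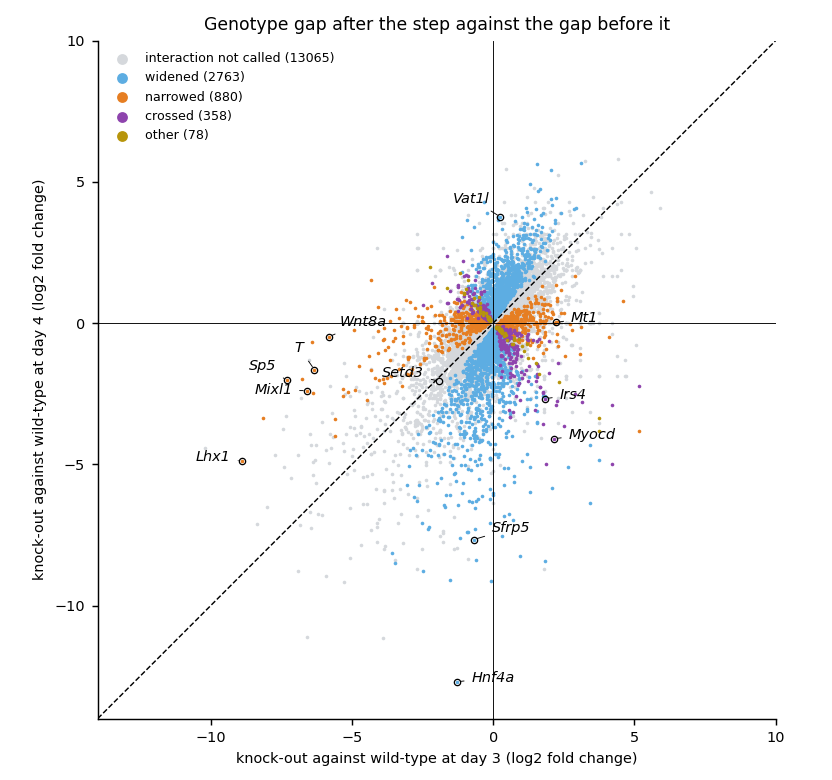
Log2 fold change of knock-out over wild-type at day 4 (vertical axis) against the same at day 3 (horizontal axis) for 17144 tested genes, coloured by class, with equal gaps on the dashed line. Streak genes such as T and Sp5 lie far to the left and above the dashed line (narrowed), Hnf4a and Sfrp5 lie near 0 on the horizontal axis and far down (widened), and Setd3 lies close to the dashed line.

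Of 16 listed primitive streak genes 15 were tested; 11 had a positive interaction, against 12.6% of all tested genes, and 1 had a negative one, against 11.2%. The median interaction was 1.61, against 0.01 over all tested genes. In the knock-out 9 of the 15 rose and 0 fell over the step (0 also at an unadjusted p under 0.05), where 5.76% of all tested genes rose. In the wild-type 5 rose and 5 fell, where 22.4% and 23.1% of all tested genes did. The knock-out still lay below the wild-type at day 4 in most of them: the median gap was -1.65 at day 4, against -3.88 at day 3.

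T, the T-box factor of the whole streak (ENSMUSG00000062327, GRCm38 chr17:8434423-8442496, plus strand), was at 32.6, 16.9 and 41.2 CPM in knock-out libraries at day 4, against 2.58, 2.07 and 3.6 CPM at day 3. It was at 61.2, 108 and 115 CPM in wild-type libraries at day 4, against 288, 235 and 143 CPM at day 3. The knock-out libraries lay below all wild-type libraries on both days, but T rose in the knock-out (3.45, edgeR adjusted p = 0.00018) and fell in the wild-type (-1.23, edgeR adjusted p = 0.0068). The knock-out mean came to 32% of the wild-type mean at day 4, against 1.24% at day 3, and the interaction was 4.68 ± 0.59 (edgeR adjusted p = 2.1e-05). In bulk samples, fewer cells that express a gene and less RNA per cell cannot be told apart. After each log2 value, ± stands for the absolute value divided by the root of the F statistic, an approximate standard error.

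Mixl1, a homeobox factor of the streak (ENSMUSG00000026497, GRCm38 chr1:180693043-180697034, minus strand), was at 20.2, 15.2 and 35.9 CPM in knock-out libraries at day 4, against 1.31, 1.79 and 2.46 CPM at day 3. It was at 135, 120.4 and 118 CPM in wild-type libraries at day 4, against 264, 161 and 114 CPM at day 3. The groups did not overlap on either day, and the interaction was 4.21 ± 0.50 (edgeR adjusted p = 1e-05), with a knock-out step of 3.68 and a wild-type step of -0.53 that did not pass the test (edgeR adjusted p = 0.13). Eomes, the T-box factor needed for endoderm (ENSMUSG00000032446, GRCm38 chr9:118478212-118486132, plus strand), was at 100.3, 82.3 and 132 CPM in knock-out libraries at day 4, against 32.2, 30.5 and 36 CPM at day 3. It was at 498, 385 and 356 CPM in wild-type libraries at day 4, against 552, 492 and 412 CPM at day 3. Knock-out libraries at day 4 were all above those at day 3 and all below every wild-type library, and the interaction was 1.91 ± 0.29 (edgeR adjusted p = 0.00012). The Eomes gap was -1.98 at day 4, against -3.88 at day 3.

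Lhx1 and Gsc, homeobox factors of the anterior streak, rose in both genotypes, and proportionally more in the knock-out. Lhx1 (ENSMUSG00000018698, GRCm38 chr11:84518284-84525535, minus strand) was at 30.4, 17.2 and 54.5 CPM in knock-out libraries at day 4, against 0.212, 0.460 and 0.526 CPM at day 3. It was at 1182, 920.4 and 904 CPM in wild-type libraries at day 4, against 340.3, 156 and 80.3 CPM at day 3. The interaction of Lhx1 was 4.02 ± 1.11 (edgeR adjusted p = 0.014), on 27 counts in all over the knock-out at day 3, and its adjusted p was 0.076 in a fit of only the 12 libraries. Gsc (GRCm38 chr12:104471209-104473330, minus strand) was at 32.3, 22.3 and 50.2 CPM in knock-out libraries at day 4, against 1.95, 3.08 and 3.82 CPM at day 3. It was at 197, 172 and 174 CPM in wild-type libraries at day 4, against 134, 74.4 and 53.9 CPM at day 3. The interaction of Gsc was 2.52 ± 0.51 (edgeR adjusted p = 0.0015). The word narrowed holds for these genes on the log scale only. The difference of means, knock-out minus wild-type, was -968 CPM for Lhx1 at day 4, against -192 CPM at day 3, and for Gsc -146 CPM at day 4, against -84.6 CPM at day 3. The same held for Evx1, a homeobox factor of the streak, with 2.59, 1.71 and 4.13 CPM in knock-out libraries at day 4, against 0.931, 0.368 and 0.833 CPM at day 3. Evx1 was at 46.4, 42 and 46.5 CPM in wild-type libraries at day 4, against 43.5, 36.5 and 25.8 CPM at day 3. Its reads cannot be told apart from those of its antisense partner Evx1os without strand. The Evx1 interaction was 1.61 ± 0.48 (edgeR adjusted p = 0.018); the adjusted p over the alternatives ran from 0.0067 to 0.072, and was above 0.05 without replicate 2 of the knock-out at day 3 or replicate 3 of the knock-out at day 4.

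**Figure D2:**
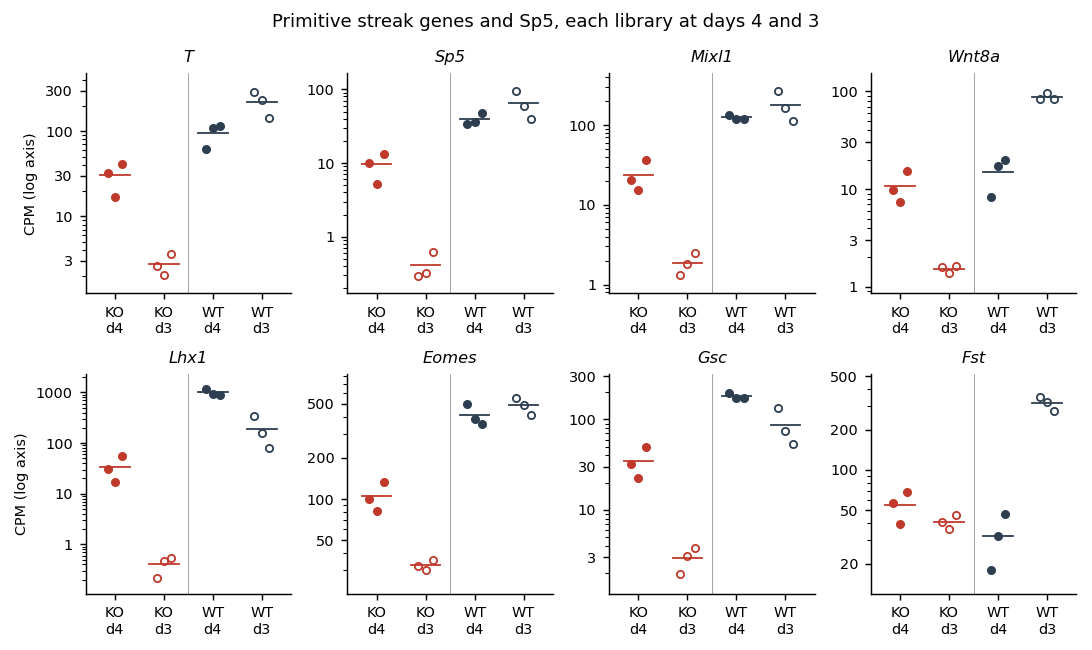
CPM on log axes of 7 primitive streak genes and of the Wnt target Sp5, with a point for each of 3 libraries per group and a bar at the group mean (KO, knock-out; WT, wild-type; d4 and d3, days; filled points day 4, open points day 3). The knock-out points at day 4 lie above those at day 3 for T, Sp5, Mixl1, Wnt8a, Lhx1, Eomes and Gsc, and the wild-type points of Wnt8a and Fst at day 4 lie far below those at day 3.

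The secreted factors of the streak list split by which genotype moved. Wnt8a, a Wnt ligand of the posterior streak (ENSMUSG00000012282, GRCm38 chr18:34542313-34548273, plus strand), was at 9.89, 7.47 and 15.2 CPM in knock-out libraries at day 4, against 1.61, 1.38 and 1.62 CPM at day 3. It was at 8.36, 17.3 and 19.7 CPM in wild-type libraries at day 4, against 84.2, 95.4 and 83.4 CPM at day 3. The groups did not overlap at day 3 and overlapped at day 4, since the knock-out rose and the wild-type fell; the interaction was 5.34 ± 0.48 (edgeR adjusted p = 3.5e-07). Fst, which encodes the Activin-binding protein follistatin, was at 57, 39.6 and 68.7 CPM in knock-out libraries at day 4, against 41, 36 and 46.3 CPM at day 3. It was at 17.9, 32.1 and 46.9 CPM in wild-type libraries at day 4, against 349, 319 and 278 CPM at day 3. Here the wild-type fell (-3.28, edgeR adjusted p = 7.8e-07) to levels that overlap the knock-out's, while the knock-out step was 0.42 and did not pass the test (edgeR adjusted p = 0.48). The Fst interaction was 3.70 ± 0.48 (edgeR adjusted p = 2.6e-05).

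Nodal itself was at 105, 97.7 and 107 CPM in knock-out libraries at day 4, against 81.1, 76.3 and 93 CPM at day 3. It was at 101, 98.1 and 88 CPM in wild-type libraries at day 4, against 144, 148 and 152 CPM at day 3. The gap of -0.83 at day 3 was 0.11 at day 4, where the libraries overlapped, and the interaction was 0.94 ± 0.20 (edgeR adjusted p = 0.0016). Wnt3, the streak-inducing Wnt ligand, rose in the knock-out to 24.2, 20.3 and 24.9 CPM at day 4, against 17.6, 13 and 18.2 CPM at day 3. In the wild-type it fell to 59.2, 51.1 and 54 CPM at day 4, against 96.7, 79.8 and 75.9 CPM at day 3, and the interaction was 1.13 ± 0.22 (edgeR adjusted p = 0.00058). Fgf8, the streak FGF ligand, had an interaction of 1.15 ± 0.30 (edgeR adjusted p = 0.0087), with a knock-out mean of 40.3% of the wild-type mean at day 4, against 18.1% at day 3. The genes of the list that were called neither way were Mesp1, Tbx6 and Wnt3a; Msgn1 was too low to be tested. Mesp1 and Mesp2 are factors of nascent mesoderm. Mesp1 had 0 counts in the knock-out at day 4, against 832 in the wild-type, at least 277-fold lower against a floor of 3 counts over the group, and 1 count against 124 at day 3. Mesp2, the 1 member with a negative interaction, was at 0.272, 0.143 and 0.292 CPM in knock-out libraries at day 4, against 4.18, 2.93 and 2.32 CPM in the wild-type, with an interaction of -3.07 ± 0.97 (edgeR adjusted p = 0.024). The adjusted p of Mesp2 over the alternatives ran from 0.00022 to 0.088.

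Sp5, T and Wnt3 are Wnt target and streak genes that narrowed, and Hnf4a is a gene that widened. They were picked as examples and not by a rule. The promoters of these 4 genes are shown for the TCF and LEF core sequences CTTTGA and CTTTGT. They are 300-base RefSeq windows around the gene start on build GRCm38.p6, read 5′ to 3′ on the gene's strand, with matches on either strand in capitals.
Sp5, chr2:70474673-70474972, plus strand: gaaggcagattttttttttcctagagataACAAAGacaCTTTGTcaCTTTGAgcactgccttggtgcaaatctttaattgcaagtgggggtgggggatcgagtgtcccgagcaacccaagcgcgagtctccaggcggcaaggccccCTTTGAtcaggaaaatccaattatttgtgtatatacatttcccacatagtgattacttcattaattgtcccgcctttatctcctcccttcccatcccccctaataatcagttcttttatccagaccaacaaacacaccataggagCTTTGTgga
T, chr17:8434173-8434472, plus strand: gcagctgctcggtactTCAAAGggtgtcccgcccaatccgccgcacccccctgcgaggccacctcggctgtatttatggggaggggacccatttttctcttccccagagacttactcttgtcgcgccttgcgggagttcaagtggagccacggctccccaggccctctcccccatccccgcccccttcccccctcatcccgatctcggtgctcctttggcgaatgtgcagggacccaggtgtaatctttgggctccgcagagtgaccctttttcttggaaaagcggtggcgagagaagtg
Wnt3, chr11:103773925-103774224, plus strand: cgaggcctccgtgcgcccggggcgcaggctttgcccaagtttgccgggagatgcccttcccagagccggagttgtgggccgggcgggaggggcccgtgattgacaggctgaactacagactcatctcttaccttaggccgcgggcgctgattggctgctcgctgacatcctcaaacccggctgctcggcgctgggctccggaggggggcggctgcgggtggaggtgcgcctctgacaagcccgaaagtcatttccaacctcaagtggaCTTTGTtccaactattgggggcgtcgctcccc
Hnf4a, chr2:163506607-163506906, plus strand: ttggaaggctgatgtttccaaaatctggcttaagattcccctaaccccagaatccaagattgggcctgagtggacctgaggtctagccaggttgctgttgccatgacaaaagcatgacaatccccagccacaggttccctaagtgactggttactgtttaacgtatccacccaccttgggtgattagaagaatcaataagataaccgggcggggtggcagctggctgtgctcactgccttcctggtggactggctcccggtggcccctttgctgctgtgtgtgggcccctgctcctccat
Sp5 held 5 matches, T 1 and Wnt3 1, none overlapping another, and Hnf4a held none. Of 32851 windows of the same length, 31.2% held at least 1 match, 16% CTTTGA and 18.7% CTTTGT. Of the 12 streak genes with a window 5 held a match (41.7%), as did 2 of 11 canonical Wnt targets (18.2%) and 2 of 10 definitive endoderm genes (20%). The shares of Wnt targets and of endoderm genes lay below the 31.2% of all windows. A match is a description of these letters and not a bound site.

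Of the 16 canonical Wnt targets tested, 9 had a positive interaction (12.6% of all tested genes did) and 0 a negative one by edgeR (1 at an unadjusted p under 0.05 and 1 by DESeq2). The median was 0.81. In the wild-type 8 of 16 fell and 2 rose over the step, where 23.1% and 22.4% of all tested genes did. In the knock-out 2 fell and 5 rose, where 5.83% and 5.76% of all tested genes did. Sp5, a zinc finger factor switched on by Wnt (ENSMUSG00000075304, GRCm38 chr2:70474923-70477729, plus strand), was at 10.1, 5.24 and 13.5 CPM in knock-out libraries at day 4, against 0.296, 0.322 and 0.614 CPM at day 3. It was at 33.7, 36.2 and 47.7 CPM in wild-type libraries at day 4, against 95.3, 59.7 and 39.9 CPM at day 3. All knock-out libraries lay below all wild-type libraries on both days, and the interaction was 5.26 ± 0.75 (edgeR adjusted p = 6.5e-05), from a knock-out step of 4.53 and a wild-type step of -0.73. Sp8, a related zinc finger factor, was at 4.58, 2.71 and 3.89 CPM in knock-out libraries at day 4, against 2.2, 1.38 and 2.06 CPM at day 3. It was at 1.52, 4.42 and 4.64 CPM in wild-type libraries at day 4, against 21, 25.6 and 25.3 CPM at day 3, a fall that left the groups overlapping at day 4. The Sp8 interaction was 3.74 ± 0.41 (edgeR adjusted p = 4.8e-07).

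Axin2, the feedback inhibitor that is the usual readout of the pathway, was at 28, 22.1 and 35.8 CPM in knock-out libraries at day 4, against 21.1, 19.6 and 22 CPM at day 3. It was at 36.2, 36.4 and 43.9 CPM in wild-type libraries at day 4, against 90.2, 105 and 99.7 CPM at day 3. The interaction was 1.79 ± 0.24 (edgeR adjusted p = 2.1e-05), and the wild-type fell (-1.34); the knock-out step was 0.45 (edgeR adjusted p = 0.11). Lef1, Tcf7, Znrf3 and Ccnd1 had no gap past the threshold at day 3 and ended higher in the knock-out. For Lef1, a DNA-binding partner of beta-catenin, the values were 27.6, 22 and 27.7 CPM in knock-out libraries at day 4, against 12.7, 13.4 and 16.7 CPM in the wild-type, with an interaction of 0.88 ± 0.21 (edgeR adjusted p = 0.004). Ccnd1, cyclin D1, was at 112, 117 and 99.8 CPM in knock-out libraries at day 4, against 59.6, 63.3 and 65.4 CPM in the wild-type, with an interaction of 0.87 ± 0.16 (edgeR adjusted p = 0.00041). Dkk1, a target and inhibitor of the pathway, rose in both genotypes and was not called by edgeR (1.97 ± 1.16, edgeR adjusted p = 0.25). It was called by DESeq2's Wald test. Dkk1 was at 5.72, 3.19 and 11.2 CPM in knock-out libraries at day 4, against 148, 135 and 114 CPM in the wild-type.

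Among Wnt ligands and receptors 8 of 31 tested genes had a positive and 4 a negative interaction (background 12.6% and 11.2%; list median 0.10, or 0.34 with groups at 0 set to the floor). Besides Wnt3 and Wnt8a, the ligands Wnt5b and Wnt11 narrowed. Wnt5b was at 8.62, 8.57 and 10.6 CPM in knock-out libraries at day 4, against 6.86, 6.44 and 6.31 CPM at day 3. It was at 7.38, 7.87 and 10.7 CPM in wild-type libraries at day 4, against 22.6, 23.4 and 19.3 CPM at day 3, and its libraries overlapped at day 4; the interaction was 1.83 ± 0.21 (edgeR adjusted p = 6.4e-07). Wnt11 rose in the knock-out to 3.58, 3.67 and 4.86 CPM at day 4, against 0.804, 0.828 and 1.14 CPM at day 3, with an interaction of 2.24 ± 0.36 (edgeR adjusted p = 5.8e-05). Wnt5a, a ligand of the non-canonical branch, widened, with 1.82, 1.14 and 0.827 CPM in knock-out libraries at day 4, against 30.5, 16.2 and 13.2 CPM in the wild-type and an interaction of -3.26 ± 0.55 (edgeR adjusted p = 0.00021).

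The Frizzled receptors went in both directions. Fzd10 was at 17.6, 15.5 and 19 CPM in knock-out libraries at day 4, against 10.8, 9.06 and 9.25 CPM at day 3. It was at 16.7, 20.7 and 21.6 CPM in wild-type libraries at day 4, against 58.6, 50.4 and 44.1 CPM at day 3, so that its gap of -2.39 at day 3 became -0.18 at day 4; the interaction was 2.21 ± 0.19 (edgeR adjusted p = 8.4e-09). Fzd5 was at 38.4, 36.5 and 43.8 CPM in knock-out libraries at day 4, against 38.7, 39.8 and 35.2 CPM at day 3. It was at 626, 475 and 384 CPM in wild-type libraries at day 4, against 56.6, 49.1 and 40.3 CPM at day 3. This rise was seen in the wild-type libraries alone, and the interaction was -3.28 ± 0.20 (edgeR adjusted p = 1.1e-09). Fzd8 was at 23.6, 22.3 and 23.9 CPM in knock-out libraries at day 4, against 144, 135 and 129.6 CPM in the wild-type, with an interaction of -1.89 ± 0.33 (edgeR adjusted p = 0.00032). Fzd7, the Frizzled of stem cells, was at 322, 302 and 298 CPM in knock-out libraries at day 4, against 294, 264 and 255 CPM in the wild-type, and its gap was 0.18 at day 4, against 0.84 at day 3. The co-receptors Lrp5 and Lrp6 had interactions of -0.10 ± 0.13 and 0.01 ± 0.07 and were not called.

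Of 14 tested secreted and membrane Wnt antagonists 3 had a positive and 4 a negative interaction, against 12.6% and 11.2% of all tested genes (list median 0.59). Sfrp1 was at 27.8, 25.9 and 32.9 CPM in knock-out libraries at day 4, against 22.9, 23.2 and 22.9 CPM at day 3. It was at 662, 486 and 361 CPM in wild-type libraries at day 4, against 44, 26.7 and 21 CPM at day 3. Only the wild-type libraries at day 4 stood apart, and the interaction was -3.71 ± 0.37 (edgeR adjusted p = 1.5e-06). Sfrp2 went the opposite way, with 35.8, 34.4 and 32.9 CPM in knock-out libraries at day 4, against 9.29, 13.3 and 15.8 CPM in the wild-type and an interaction of 0.90 ± 0.18 (edgeR adjusted p = 0.00052). Frzb, which encodes a Frizzled-like decoy, was at 4.63, 3.09 and 8.08 CPM in knock-out libraries at day 4, against 111, 102 and 88.3 CPM in the wild-type and was not called (1.05 ± 0.80, edgeR adjusted p = 0.39).

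All 15 listed definitive endoderm genes were tested: 1 had a positive interaction and 8 a negative one (background 12.6% and 11.2%), with a median of -1.38. The median was -0.31 over the 8 transcription factors of the list (1 positive, 3 negative). Over its 7 other members it was -1.85 (0 positive by edgeR and 1 by DESeq2, 5 negative by both). In the wild-type 14 of 15 rose over the step (22.4% of all tested genes did), against 8 of 15 in the knock-out (5.76%). Foxa2, the forkhead factor of anterior streak and endoderm (GRCm38 chr2:148042877-148046969, minus strand), was the member that narrowed. It was at 46.8, 37.4 and 73.4 CPM in knock-out libraries at day 4, against 5.25, 4.88 and 6.53 CPM at day 3. It was at 145, 159.9 and 151 CPM in wild-type libraries at day 4, against 177, 152 and 118 CPM at day 3. The wild-type step was 0.03, and the knock-out mean came to 34.5% of the wild-type mean at day 4, against 3.73% at day 3; the interaction was 3.21 ± 0.37 (edgeR adjusted p = 6.3e-06).

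Sox17, Cer1, Gata6, Cxcr4 and Foxa1 rose in both genotypes, with no interaction past the threshold. Sox17, the defining endoderm factor, was at 6.53, 3.81 and 11.3 CPM in knock-out libraries at day 4, against 0.169, 0.230 and 0.263 CPM at day 3. It was at 229.5, 211 and 209 CPM in wild-type libraries at day 4, against 38.8, 12.4 and 5.14 CPM at day 3. The interaction was 1.47 ± 1.40 (edgeR adjusted p = 0.51), and the knock-out mean was 3.34% of the wild-type mean at day 4, against 1.18% at day 3. Cer1, a secreted inhibitor of Nodal, Wnt and BMP ligands, was at 30.4, 21 and 65.9 CPM in knock-out libraries at day 4, against 0, 0.0460 and 0.175 CPM at day 3. It was at 852, 844 and 796 CPM in wild-type libraries at day 4, against 182, 67.8 and 31.1 CPM at day 3. With 5 counts in all in the knock-out at day 3, its interaction was 5.79 ± 1.97 (edgeR adjusted p = 0.051); over the alternatives the value ran from 4.86 to 7.30 and the adjusted p from 3e-06 to 0.13, under 0.05 by DESeq2's Wald test, without replicate 2 of the knock-out at day 4 and without replicate 3 of the wild-type at day 3. Cxcr4, the surface marker of definitive endoderm, was at 3.36, 3.05 and 7.69 CPM in knock-out libraries at day 4, against 0.339, 0.460 and 0.833 CPM at day 3. It was at 230.2, 176 and 159.8 CPM in wild-type libraries at day 4, against 21.4, 6.92 and 4.15 CPM at day 3, and the interaction was -1.03 ± 1.04 (edgeR adjusted p = 0.54).

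Gata4, Shisa2, Clic6, Foxa3 and Sfrp5 widened, with knock-out steps that did not pass the test. Gata4, a zinc finger factor of endoderm, was at 0.908, 0.809 and 0.973 CPM in knock-out libraries at day 4, against 0.847, 0.874 and 0.351 CPM at day 3. It was at 161, 112 and 92.3 CPM in wild-type libraries at day 4, against 6.37, 3.78 and 1.97 CPM at day 3, and the interaction was -4.54 ± 0.64 (edgeR adjusted p = 3.2e-05). Shisa2 was at 14.9, 13.9 and 15.9 CPM in knock-out libraries at day 4, against 14.5, 11.4 and 14.2 CPM at day 3. It was at 165, 147 and 123 CPM in wild-type libraries at day 4, against 19.4, 12.5 and 12.6 CPM at day 3. Knock-out and wild-type libraries overlapped at day 3 and were far apart at day 4, with an interaction of -3.14 ± 0.24 (edgeR adjusted p = 1e-08). Clic6 did the same, with 6.4, 8.57 and 7.35 CPM in knock-out libraries at day 4, against 249, 183 and 120.0 CPM in the wild-type and an interaction of -4.74 ± 0.32 (edgeR adjusted p = 4e-09). Foxa3, a forkhead factor, had an interaction of -2.63 ± 0.30 (edgeR adjusted p = 7.4e-07), and Sfrp5 is given below. Trh and Cpm changed sign, Trh being at 1350.0, 1395 and 1602 CPM in knock-out libraries at day 4, against 2396, 2611 and 2544 CPM in the wild-type and at 959, 1021 and 1103 CPM in knock-out libraries at day 3, against 727, 872 and 947 CPM in the wild-type. Hhex was at 5.26, 2.95 and 8.95 CPM in knock-out libraries at day 4, against 145, 119 and 106 CPM in the wild-type and was not called (-1.38 ± 0.55, edgeR adjusted p = 0.082). It was called by DESeq2's Wald test, without replicate 3 of the knock-out at day 4 and without replicate 1 of the wild-type at day 3.

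**Figure D3:**
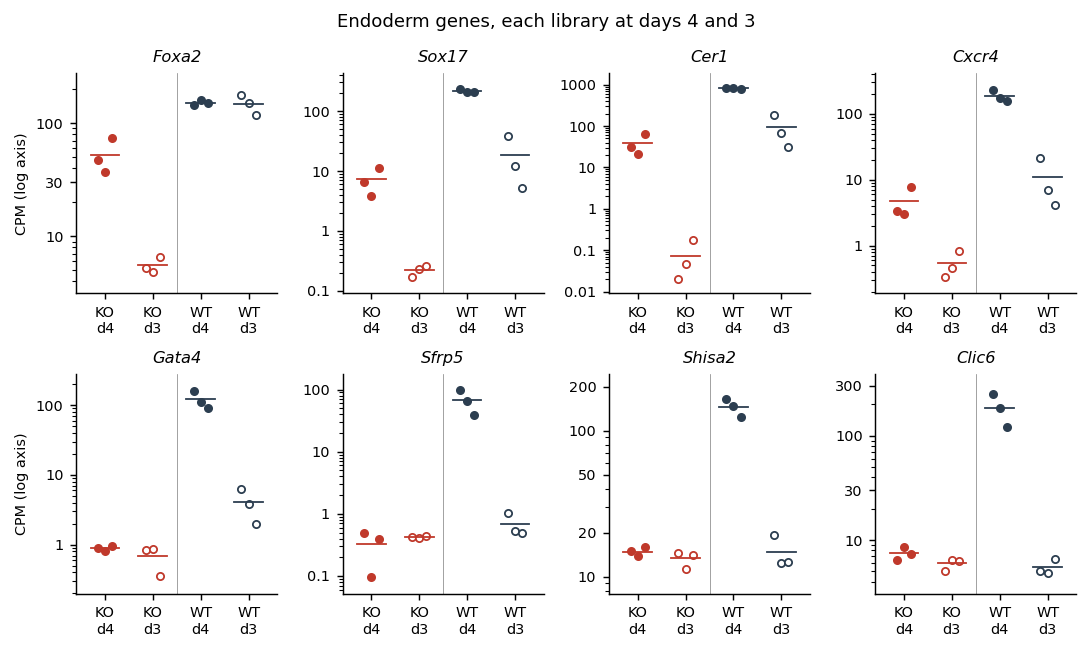
CPM on log axes of 8 definitive endoderm genes, with a point for each of 3 libraries per group and a bar at the group mean (KO, knock-out; WT, wild-type; d4 and d3, days; a value of 0 is drawn at the low end of the axis). Foxa2, Sox17, Cer1 and Cxcr4 are higher at day 4 than at day 3 in the knock-out, while Gata4, Sfrp5, Shisa2 and Clic6 lie near their day 3 level in the knock-out and rise in the wild-type.

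The 5 widened genes with the largest interactions and a lower knock-out were Hnf4a, Akr1c19, Kcnj5, Robo3 and Sfrp5, near 0 in all groups but the wild-type at day 4. Hnf4a had 0 counts in all in the knock-out at day 4, against 2488 in the wild-type (55.2, 39.1 and 24 CPM). Against a floor of 3 counts over the group this is at least 827-fold lower in the knock-out; Hnf4a is a nuclear receptor of endoderm and liver (ENSMUSG00000017950, GRCm38 chr2:163506808-163572910, plus strand). At day 3 Hnf4a had 2 counts in the knock-out and 5 in the wild-type. Its adjusted p in the interaction was 0.03 in edgeR and ran from 2.7e-08 to 0.14 over the alternatives, above 0.05 without the filter, with only the 12 libraries, and without replicate 2 or replicate 3 of the knock-out at day 3. Sfrp5 had 21 counts in all in the knock-out at day 4, against 4297 in the wild-type (98.6, 66.3 and 39.6 CPM), a fold of 204 for the wild-type over the knock-out. Akr1c19 had 9 counts in all in the knock-out at day 4, against 1750 in the wild-type (40.8, 25.4 and 17.1 CPM). Kcnj5 had 4 counts in all in the knock-out at day 4, against 1447 in the wild-type (35.5, 19.6 and 13.9 CPM). Robo3 had 1 count in all in the knock-out at day 4, against 745 in the wild-type (15.4, 10.7 and 9.19 CPM). At day 3 each of these genes was at 1.04 CPM or less in every library of both genotypes.

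None of the 15 tested mesoderm genes had a positive interaction and 5 had a negative one (background 12.6% and 11.2%, median -1.43). Mesp1, Mesp2 and Tbx6 are also on the streak list, so the negative interaction of Mesp2 counts in both lists. Over the step 10 of the 15 rose in the wild-type (22.4% of all tested genes did). In the knock-out 1 rose, a share close to the 5.76% of all tested genes. The count of 0 positive interactions was 1 at an unadjusted p under 0.05, 0 by DESeq2, and 0 to 1 with 1 library left out. The count of 5 ran from 3 to 5, with 3 without replicate 2 of the knock-out at day 4. Tbx20, a cardiac T-box factor, was at 0.408, 0.286 and 0.486 CPM in knock-out libraries at day 4, against 28.6, 18.9 and 10.5 CPM in the wild-type, with an interaction of -4.29 ± 0.82 (edgeR adjusted p = 0.00038). Kdr, a receptor of vascular progenitors, was at 0, 0.0476 and 0.195 CPM in knock-out libraries at day 4, against 75.2, 36.3 and 32.6 CPM in the wild-type, and was not called on 2 and 84 counts at day 3 (-3.88 ± 2.75, edgeR adjusted p = 0.35). It was called by DESeq2's Wald test. Pdgfra, a receptor of paraxial and streak mesoderm, rose in both genotypes and was not called, with 4.31, 3.05 and 6.81 CPM in knock-out libraries at day 4, against 96, 61 and 56.6 CPM in the wild-type.

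Of the BMP ligands, Bmp2 narrowed on the log scale (2.96 ± 0.68, edgeR adjusted p = 0.0036) and Bmp7 did so with an adjusted p that ran from 0.0087 to 0.072 over the alternatives. That p was above 0.05 without replicate 3 of the knock-out at day 3 or at day 4, or without replicate 1 of the wild-type at day 3 or at day 4. Bmp4 (-0.75 ± 0.33, edgeR adjusted p = 0.11) and Bmp5 (-0.23 ± 0.86, edgeR adjusted p = 0.9) were not called. Of 9 targets, 7 had a negative and 0 a positive interaction by edgeR, against 11.2% and 12.6% of all tested genes (0 positive also at an unadjusted p under 0.05 and by DESeq2). The calls of the targets Id3 and Msx1 were lost in 7 and 6 of 17 alternatives. Msx2, a homeobox target, was at 0.227, 0.238 and 0.292 CPM in knock-out libraries at day 4, against 0.423, 0.322 and 0.0439 CPM at day 3. It was at 23.5, 17.6 and 16.4 CPM in wild-type libraries at day 4, against 0.613, 0.213 and 0.313 CPM at day 3. The interaction was -5.68 ± 0.81 (edgeR adjusted p = 1.3e-05). Smad6, the inhibitory SMAD, was at 4.31, 5.14 and 6.28 CPM in knock-out libraries at day 4, against 36, 29.2 and 28.7 CPM in the wild-type and at 3.73, 3.41 and 3.55 CPM in knock-out libraries at day 3, against 8.16, 8.89 and 6.43 CPM in the wild-type, with an interaction of -1.45 ± 0.24 (edgeR adjusted p = 6.7e-05). Bambi, a pseudoreceptor, was at 14.2, 16.9 and 16 CPM in knock-out libraries at day 4, against 66.3, 62.6 and 52.2 CPM in the wild-type, with an interaction of -1.34 ± 0.18 (edgeR adjusted p = 7.6e-06). Id1, a helix-loop-helix inhibitor, was at 3.68, 2.95 and 6.42 CPM in knock-out libraries at day 4, against 122, 109 and 100.3 CPM in the wild-type; its interaction was -1.93 ± 0.55 (edgeR adjusted p = 0.016), and its adjusted p was above 0.05 without replicate 3 of the knock-out at day 3 and with only the 12 libraries.

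Of 17 tested genes of the Nodal and Activin pathway 2 had a positive and 4 a negative interaction (background 12.6% and 11.2%; median -0.04). The co-receptor gene Tdgf1, which encodes Cripto, narrowed from below, and was at 364, 363 and 413 CPM in knock-out libraries at day 4, against 266, 265 and 256 CPM at day 3. It was at 487, 539 and 542 CPM in wild-type libraries at day 4, against 827, 624 and 531 CPM at day 3, and the interaction was 0.87 ± 0.24 (edgeR adjusted p = 0.013). Lefty2, a feedback inhibitor, changed sign, with 72.4, 102 and 93.2 CPM in knock-out libraries at day 4, against 145, 179 and 143 CPM in the wild-type and 81.1, 93.5 and 72.6 CPM in knock-out libraries at day 3, against 62.5, 50.6 and 41.6 CPM in the wild-type; the interaction was -1.48 ± 0.34 (edgeR adjusted p = 0.0036). Lefty1 had an interaction of -0.96 ± 0.35 (edgeR adjusted p = 0.056) and was not called. The receptor gene Acvr1b (-0.49 ± 0.14) and the partner Foxh1 (-0.48 ± 0.08) widened, and Smad2 changed sign (-0.25 ± 0.07, a call lost without the filter on low counts), while Acvr2a, Acvr2b, Smad3 and Smad4 were not called.

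**Figure D4:**
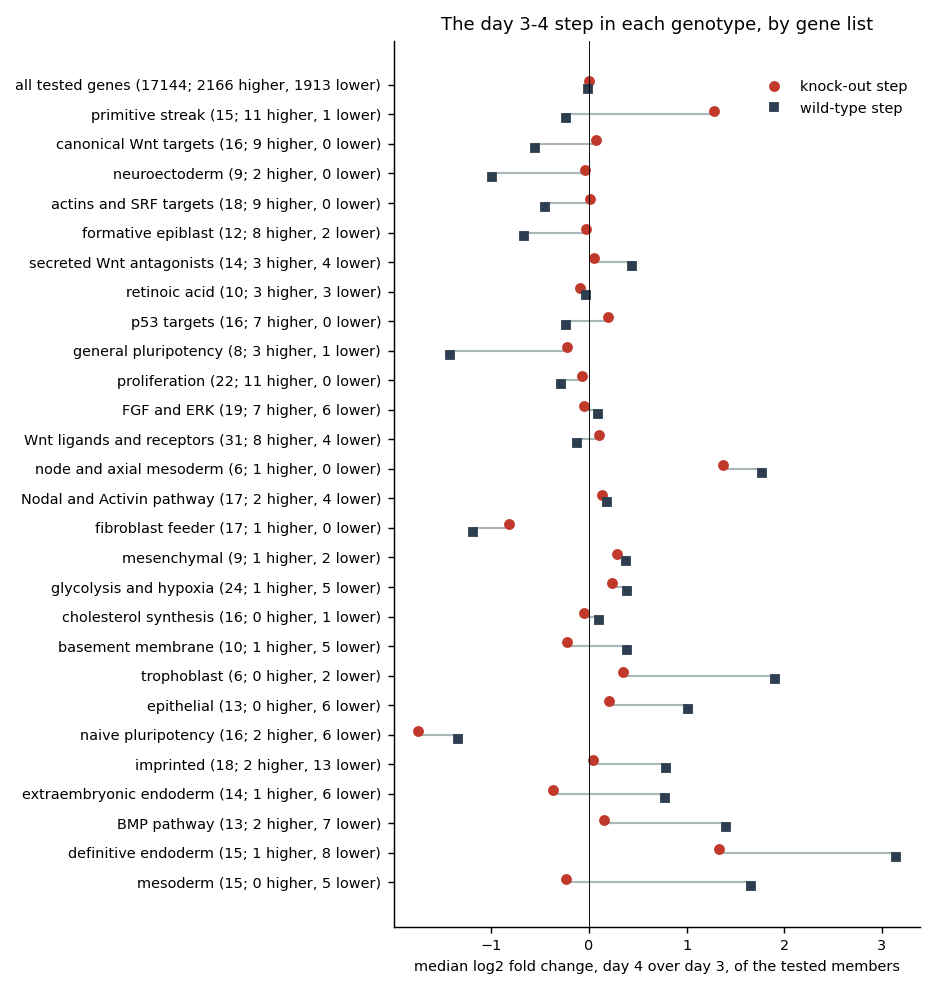
Median log2 fold change of day 4 over day 3 of the tested members of 27 gene lists and of all tested genes, in the knock-out (red circles) and the wild-type (dark squares), ordered by the median interaction. Brackets give the members tested and those with a higher or lower interaction; streak genes, with a median interaction of 1.61, stand at one end of this order, and mesoderm (-1.43), definitive endoderm (-1.38) and BMP pathway genes (-1.34) at the other.

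Narrowing from above, where the knock-out was the higher genotype at day 3, was led by Mt1, Pak6, Sspn, Mbp and Camk1d. Mt1, a metallothionein (ENSMUSG00000031765, GRCm38 chr8:94179082-94180327, plus strand), was at 7.44, 6.62 and 5.69 CPM in knock-out libraries at day 4, against 29, 30.4 and 28.8 CPM at day 3. It was at 4.57, 8.61 and 6.14 CPM in wild-type libraries at day 4, against 4.25, 5.8 and 8.49 CPM at day 3. The knock-out fell into the range of the wild-type, and the interaction was -2.21 ± 0.27 (edgeR adjusted p = 4.8e-06). Pak6, a kinase gene, was at 20.4, 18.3 and 19.7 CPM in knock-out libraries at day 4, against 26.5, 25 and 22.7 CPM at day 3. It was at 17.8, 15.7 and 13.2 CPM in wild-type libraries at day 4, against 3.16, 6.28 and 7.73 CPM at day 3, so here the wild-type rose; the interaction was -1.79 ± 0.28 (edgeR adjusted p = 6.6e-05). Mbp, which encodes myelin basic protein, closed in the same way (-1.67 ± 0.19, edgeR adjusted p = 7.6e-07). Sspn, which encodes sarcospan, fell in the knock-out to 10.2, 7.38 and 12.1 CPM at day 4, against 17.5, 30.9 and 17.4 CPM at day 3 (-1.69 ± 0.34, edgeR adjusted p = 0.001). Camk1d, a kinase gene, had an interaction of -1.48 ± 0.31 (edgeR adjusted p = 0.0017).

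Naive pluripotency genes, silenced as stem cells leave the naive state, fell in the knock-out in 9 of 16 and rose in 1, against 8 that fell and 3 that rose in the wild-type. The shares over all tested genes were 5.83% that fell and 5.76% that rose in the knock-out, and 23.1% and 22.4% in the wild-type. In the interaction 2 were positive, a share close to the 12.6% of all tested genes, and 6 negative, against 11.2% (median -0.79). Klf2, a Krüppel-like factor, was at 2.81, 2.19 and 2.53 CPM in knock-out libraries at day 4, against 6.86, 9.71 and 6.62 CPM at day 3. It was at 1.87, 2.28 and 1.59 CPM in wild-type libraries at day 4, against 1.32, 2.24 and 1.88 CPM at day 3. The knock-out reached the wild-type's range at day 4, and the interaction was -1.70 ± 0.39 (edgeR adjusted p = 0.0033). Nr0b1, a nuclear receptor of naive cells, fell in the knock-out to 0.318, 0.428 and 0 CPM at day 4, against 2.96, 2.67 and 1.45 CPM at day 3 (-4.20 ± 0.89, edgeR adjusted p = 0.0018). Esrrb, Zfp42 and Dppa5a fell in both genotypes with no interaction past the threshold; Zfp42 was at 7.49, 7.33 and 7.64 CPM in knock-out libraries at day 4, against 25.8, 29.3 and 22.9 CPM at day 3. Tbx3 is on this list and is also known from endoderm. It was at 0.136, 0.190 and 0.341 CPM in knock-out libraries at day 4, against 48.8, 31.8 and 25.4 CPM in the wild-type, with an interaction of -6.63 ± 0.87 (edgeR adjusted p = 1.3e-05).

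Nanog changed sign. It was at 244, 237 and 265 CPM in knock-out libraries at day 4, against 196, 196 and 201 CPM at day 3. It was at 86.1, 124 and 125 CPM in wild-type libraries at day 4, against 367, 372 and 399 CPM at day 3. The knock-out was the lower genotype at day 3 and the higher at day 4, with no overlap on either day, as it rose in the knock-out (0.33) and fell in the wild-type (-1.77); the interaction was 2.10 ± 0.13 (edgeR adjusted p = 3.6e-10). Pou5f1, which encodes Oct4, was at 488, 459.7 and 475 CPM in knock-out libraries at day 4, against 457, 449.9 and 468 CPM at day 3. It was at 94.9, 151 and 175 CPM in wild-type libraries at day 4, against 401, 422 and 435 CPM at day 3. This is a fall in the wild-type alone, with an interaction of 1.63 ± 0.18 (edgeR adjusted p = 3.8e-06). Of the 8 general pluripotency genes tested 3 had a positive and 1 a negative interaction, against 12.6% and 11.2% of all tested genes: L1td1 and Utf1 widened as Pou5f1 did (1.22 ± 0.17, edgeR adjusted p = 2.8e-05 for L1td1), and Sall4 was at 265, 224 and 252 CPM in knock-out libraries at day 4, against 484, 453 and 472 CPM in the wild-type (-0.79 ± 0.10, edgeR adjusted p = 4.3e-06). Lin28a had an interaction of 0.04 ± 0.07 and was not called.

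Of 12 formative epiblast genes 8 had a positive and 2 a negative interaction (background 12.6% and 11.2%, median 0.65). With 1 library left out the 8 were 6 to 8. The calls of Pou3f1 and Sall2 were lost in 11 and 10 of 17 alternatives. In the knock-out 0 rose and 0 fell by edgeR (2 and 2 at an unadjusted p under 0.05), where 5.76% and 5.83% of all tested genes did. In the wild-type 9 fell and 2 rose, where 23.1% and 22.4% of all tested genes did. Lin28b, an RNA-binding regulator, was at 206, 213 and 196 CPM in knock-out libraries at day 4, against 109, 122 and 124 CPM in the wild-type, with an interaction of 0.71 ± 0.08 (edgeR adjusted p = 5.5e-07). Zic5, a zinc finger factor, was at 169, 168 and 156 CPM in knock-out libraries at day 4, against 87.6, 96.6 and 98.8 CPM in the wild-type, with an interaction of 0.88 ± 0.09 (edgeR adjusted p = 1.1e-07). Foxd3, a forkhead factor of the epiblast, was at 78.6, 78.5 and 79.97 CPM in knock-out libraries at day 4, against 13, 24 and 25.8 CPM in the wild-type (1.05 ± 0.26, edgeR adjusted p = 0.0059). Otx2, a homeobox factor used both in epiblast and in anterior endoderm, went the other way with 276, 278 and 284 CPM in knock-out libraries at day 4, against 572, 510.0 and 451 CPM in the wild-type (-0.94 ± 0.18, edgeR adjusted p = 0.00095).

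**Figure D5:**
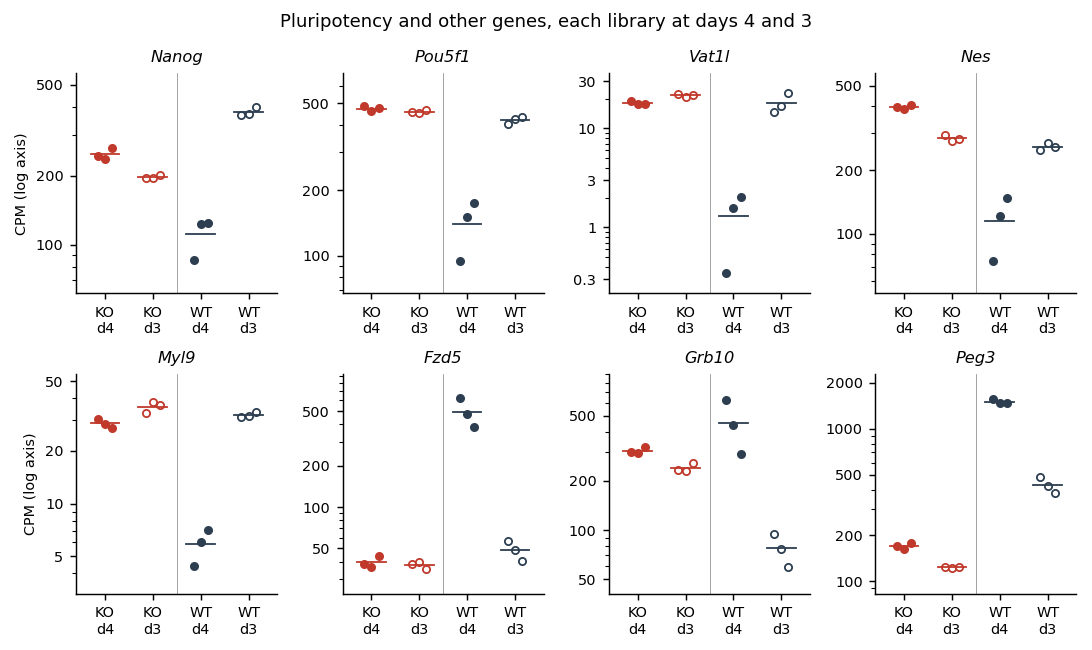
CPM on log axes of Nanog, Pou5f1, Vat1l, Nes, Myl9, Fzd5, Grb10 and Peg3, with a point for each of 3 libraries per group and a bar at the group mean (KO, knock-out; WT, wild-type; d4 and d3, days). In Pou5f1, Vat1l, Nes and Myl9 the wild-type at day 4 lies below the other 3 groups, and in Fzd5 above them. In Nanog and Grb10 the order of the genotype means differs between the days, with overlapping libraries for Grb10 at day 4.

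The widened genes with the largest interactions and a higher knock-out were Vat1l, Fam131b, Nefm, Snph and Slitrk5. Vat1l (ENSMUSG00000046844, GRCm38 chr8:114205612-114374071, plus strand) was at 18.7, 17.8 and 17.7 CPM in knock-out libraries at day 4, against 22, 20.7 and 21.9 CPM at day 3. It was at 0.344, 1.58 and 2.0 CPM in wild-type libraries at day 4, against 14.5, 16.9 and 22.5 CPM at day 3. The wild-type at day 4 lay below all other libraries, and the interaction was 3.5 ± 0.36 (edgeR adjusted p = 4.8e-07). Nefm, the medium neurofilament, was at 51.6, 49.6 and 56.2 CPM in knock-out libraries at day 4, against 36.4, 30.5 and 36.2 CPM at day 3. It was at 7.77, 12.2 and 16.7 CPM in wild-type libraries at day 4, against 47.7, 45.9 and 54.1 CPM at day 3, with an interaction of 2.62 ± 0.35 (edgeR adjusted p = 2.1e-05). Snph, which encodes syntaphilin, was at 14.1, 13.9 and 15.4 CPM in knock-out libraries at day 4, against 1.67, 2.61 and 4.28 CPM in the wild-type (2.58 ± 0.31, edgeR adjusted p = 2.1e-06). Slitrk5, a neuronal membrane protein gene, was at 16, 14.2 and 15.7 CPM in knock-out libraries at day 4, against 1.72, 2.47 and 1.73 CPM in the wild-type (2.49 ± 0.26, edgeR adjusted p = 1.5e-07). Fam131b was at 17.9, 16.9 and 19 CPM in knock-out libraries at day 4, against 1.57, 2.93 and 3.23 CPM in the wild-type (2.69 ± 0.29, edgeR adjusted p = 7.3e-07). Nefm, Snph and Slitrk5 are best known from neurons. Of 9 tested neuroectoderm genes 2 had a positive interaction and 0 a negative one by edgeR, against 12.6% and 11.2% of all tested genes (1 at an unadjusted p under 0.05, 0 by DESeq2; median 0.78, or 0.25 with groups at 0 set to the floor). These were Nes, the intermediate filament nestin, at 396, 387 and 405 CPM in knock-out libraries at day 4, against 74.1, 122 and 148 CPM in the wild-type (1.64 ± 0.23, edgeR adjusted p = 5.6e-05), and Sox11 (0.78 ± 0.12, edgeR adjusted p = 2.6e-05). Pax6 was at 1.01 CPM or less in every library.

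Actins and targets of the transcription factor SRF had 9 positive and 0 negative interactions of 18 tested by edgeR. The background was 12.6% and 11.2%, and the list median was 0.68. The negative ones were 0 also at an unadjusted p under 0.05 and by DESeq2. In the wild-type 11 fell and 1 rose, where 23.1% and 22.4% of all tested genes did. In the knock-out 1 fell, a share close to the 5.83% of all tested genes, and 2 rose, against 5.76%. Myl9, a myosin light chain, was at 30.5, 28.4 and 27.2 CPM in knock-out libraries at day 4, against 32.8, 38.2 and 36.4 CPM at day 3. It was at 4.43, 6.01 and 7.1 CPM in wild-type libraries at day 4, against 31.2, 31.6 and 33.4 CPM at day 3, with an interaction of 2.13 ± 0.37 (edgeR adjusted p = 0.00037). Cnn1, calponin, was at 57, 59.98 and 64.6 CPM in knock-out libraries at day 4, against 8.26, 13.5 and 17.1 CPM in the wild-type (1.89 ± 0.33, edgeR adjusted p = 0.00038). Srf itself was at 103, 99.96 and 100.4 CPM in knock-out libraries at day 4, against 55.9, 57.5 and 68.2 CPM in the wild-type (0.62 ± 0.10, edgeR adjusted p = 7.5e-05). Actg1, a cytoplasmic actin, changed by less (0.27 ± 0.07, edgeR adjusted p = 0.008), and Actb was not called (-0.14 ± 0.08). With 1 library left out the 9 were 5 to 8, with 5 without replicate 1 of the knock-out at day 3, replicate 2 of the knock-out at day 4 or replicate 3 of the wild-type at day 3. The calls of Tpm2, Vcl and Ctgf were each lost in 12 of 17 alternatives, and that of Actg2 in 4.

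Of 22 proliferation genes 11 had a positive and 0 a negative interaction by edgeR, against 12.6% and 11.2% of all tested genes (0 negative also at an unadjusted p under 0.05 and by DESeq2; median 0.20), with 5 that fell in the knock-out (5.83% of all tested genes did) and 18 in the wild-type (23.1%). Mcm5, a subunit of the replicative helicase, was at 618, 618 and 593 CPM in knock-out libraries at day 4, against 328, 349 and 372 CPM in the wild-type (0.52 ± 0.07, edgeR adjusted p = 5.4e-06). Ccne1, cyclin E1, was at 163, 166 and 157 CPM in knock-out libraries at day 4, against 74.5, 84.4 and 84.7 CPM in the wild-type (0.68 ± 0.09, edgeR adjusted p = 3.7e-06). Of 16 p53 targets 7 had a positive and 0 a negative interaction by edgeR, against 12.6% and 11.2% of all tested genes (0 negative also at an unadjusted p under 0.05 and by DESeq2; median 0.30). Cdkn1a, the cell cycle inhibitor p21, was at 104, 77.9 and 104 CPM in knock-out libraries at day 4, against 82, 86.5 and 97.5 CPM in the wild-type and at 63.5, 55.3 and 77 CPM in knock-out libraries at day 3, against 128, 112 and 116 CPM in the wild-type; the interaction was 0.97 ± 0.26 (edgeR adjusted p = 0.012). Mdm2 was not called (0.25 ± 0.11, edgeR adjusted p = 0.09).

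The 3 genes that changed sign with the largest interactions were Myocd, Stk32a and Irs4, each higher in the knock-out at day 3 and lower at day 4. Irs4, an insulin receptor substrate gene (ENSMUSG00000054667, GRCm38 chrX:141710998-141725263, minus strand), was at 47.4, 45.2 and 45 CPM in knock-out libraries at day 4, against 36.2, 35.9 and 31.6 CPM at day 3. It was at 414, 260.4 and 205 CPM in wild-type libraries at day 4, against 11.3, 9.21 and 8.53 CPM at day 3. The wild-type moved past a knock-out that stayed within 31.6 to 47.4 CPM, and the interaction was -4.51 ± 0.28 (edgeR adjusted p = 2.6e-09). Stk32a, a kinase gene, was at 9.8, 11.9 and 8.8 CPM in knock-out libraries at day 4, against 13, 11.4 and 10.9 CPM at day 3. It was at 117, 81.8 and 61 CPM in wild-type libraries at day 4, against 4.15, 4.26 and 4.29 CPM at day 3 (-4.56 ± 0.26, edgeR adjusted p = 3.8e-11). Myocd, which encodes the SRF coactivator myocardin, was at 0.635, 0.381 and 0.827 CPM in knock-out libraries at day 4, against 16.1, 10.1 and 5.46 CPM in the wild-type, and at 0.762, 0.782 and 0.658 CPM in knock-out libraries at day 3, against 0.0943, 0.160 and 0.223 CPM in the wild-type (-6.24 ± 0.68, edgeR adjusted p = 3.4e-07, on 10 counts in the wild-type at day 3). Grb10, an imprinted adaptor gene, had the same course in its group means, but its libraries overlapped at day 4. It was at 299.9, 297 and 323 CPM in knock-out libraries at day 4, against 235, 229 and 256 CPM at day 3. It was at 622, 443 and 292 CPM in wild-type libraries at day 4, against 94.9, 77.2 and 59.6 CPM at day 3 (-2.20 ± 0.29, edgeR adjusted p = 3.5e-05).

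Of 18 tested imprinted genes 13 had a negative and 2 a positive interaction (background 11.2% and 12.6%, median -1.08). Over the step 14 rose in the wild-type (22.4% of all tested genes did) and 4 in the knock-out (5.76%). Peg3, a zinc finger gene, was at 169.8, 164 and 178 CPM in knock-out libraries at day 4, against 125, 123 and 124 CPM at day 3. It was at 1561, 1471 and 1466 CPM in wild-type libraries at day 4, against 483, 425 and 381 CPM at day 3. It rose in both genotypes from levels that differed at day 3, and the interaction was -1.34 ± 0.13 (edgeR adjusted p = 2.4e-07). H19, a noncoding RNA, was at 0.908, 0.857 and 1.65 CPM in knock-out libraries at day 4, against 115, 95.9 and 54.4 CPM in the wild-type (-5.42 ± 0.96, edgeR adjusted p = 0.00052). Peg10 was at 71.4, 59.8 and 88.1 CPM in knock-out libraries at day 4, against 439, 391 and 393 CPM in the wild-type (-2.01 ± 0.26, edgeR adjusted p = 2.8e-05). Mest was at 121, 113 and 155 CPM in knock-out libraries at day 4, against 663, 685 and 695 CPM in the wild-type (-1.34 ± 0.16, edgeR adjusted p = 4.1e-06). Plagl1 and Snrpn had a positive interaction, that of Plagl1 with an adjusted p of up to 0.051 over the alternatives, above 0.05 without replicate 3 of the wild-type at day 3 or replicate 1 of the wild-type at day 4. Snrpn was at 2.63, 2.57 and 1.95 CPM in knock-out libraries at day 4, against 0.0492, 0.279 and 0.227 CPM in the wild-type. The count of 2 ran from 1 to 3 with 1 library left out, 3 without replicate 1 of the wild-type at day 3 or replicate 3 of the knock-out at day 4. Rian and Mirg, noncoding RNAs of distal chromosome 12, where Setd3 and Gsc also lie, had negative interactions whose adjusted p was above 0.05 in 6 and 3 of 17 alternatives. On that chromosome from 90 Mb on, 54 of 183 tested genes were called in the interaction (29.5%), against 23.8% elsewhere, and the median gap there was -0.51 at day 4 and -0.25 at day 3; its part in the values of these genes was not tested. On chromosome 8, where Mt1 and Vat1l lie, the share was 22.1%. The median gap there was 0.20 at day 4 and 0.21 at day 3, against -0.02 elsewhere on both days, and its part was not tested either.

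Of 19 FGF and ERK genes 7 had a positive and 6 a negative interaction, against 12.6% and 11.2% of all tested genes (median 0.17). With 1 library left out the 7 were 5 to 8 and the 6 were 6 to 7. The calls of Dusp6 and Spred1 were lost in 10 and 8 of 17 alternatives. Dusp4, an ERK phosphatase, was at 38.5, 32.6 and 39.9 CPM in knock-out libraries at day 4, against 56.1, 55.5 and 53.2 CPM at day 3. It was at 96.3, 118 and 121 CPM in wild-type libraries at day 4, against 33.1, 38.1 and 35.3 CPM at day 3 (-2.23 ± 0.16, edgeR adjusted p = 3.4e-09). Spry4, a feedback inhibitor, changed sign as well (-1.20 ± 0.12, edgeR adjusted p = 6.8e-08), while Spry2 widened with 100.4, 90.5 and 101 CPM in knock-out libraries at day 4, against 40.6, 53.2 and 57.3 CPM in the wild-type (1.00 ± 0.15, edgeR adjusted p = 4.7e-05). Fgf17, a ligand of the Fgf8 family, narrowed as the wild-type fell to 1.43, 2.65 and 4.05 CPM at day 4, against 14.8, 11.7 and 8.67 CPM at day 3 (2.51 ± 0.36, edgeR adjusted p = 2.1e-05). Fgf3 was at 0.635, 0.857 and 0.827 CPM in knock-out libraries at day 4, against 27.4, 17 and 18.1 CPM in the wild-type (-4.91 ± 0.49, edgeR adjusted p = 1.2e-07). Fgf4 fell in both genotypes without an interaction past the threshold (-0.11 ± 0.30, edgeR adjusted p = 0.85) and was at 58.5, 58.6 and 44.9 CPM in knock-out libraries at day 4, against 4.77, 8.15 and 9.28 CPM in the wild-type.

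Epithelial genes had 6 negative and 0 positive interactions of 13 by edgeR (1 positive at an unadjusted p under 0.05, 0 by DESeq2; median -0.74), against 11.2% and 12.6% of all tested genes. In the knock-out 0 rose by edgeR (3 at an unadjusted p under 0.05), against 10 in the wild-type; over all tested genes the shares were 5.76% and 22.4%. Krt8, a simple keratin, was at 170.4, 189 and 195 CPM in knock-out libraries at day 4, against 128, 132 and 131 CPM at day 3. It was at 650.4, 603 and 543 CPM in wild-type libraries at day 4, against 118, 97.2 and 81.4 CPM at day 3 (-2.09 ± 0.34, edgeR adjusted p = 0.00023). Esrp2 and Crb3 narrowed from above, and Epcam was not called (-0.24 ± 0.10, edgeR adjusted p = 0.11). Of 9 mesenchymal genes 1 had a positive interaction, a share close to the 12.6% of all tested genes, and 2 a negative one, against 11.2% (median -0.09): Zeb2 narrowed (1.31 ± 0.35, edgeR adjusted p = 0.0089), while Fn1 (-2.0 ± 0.40, edgeR adjusted p = 0.0015) and Itga5 (-1.47 ± 0.20, edgeR adjusted p = 2.1e-05) widened. Without replicate 2 of the knock-out at day 4 there were 2 positive calls. Cdh2, N-cadherin, was at 26.5, 25.7 and 35.8 CPM in knock-out libraries at day 4, against 356, 293 and 288 CPM in the wild-type and was not called (-0.96 ± 0.39, edgeR adjusted p = 0.087). It was called by DESeq2's Wald test and without replicate 1 of the wild-type at day 3. Of 10 basement membrane genes 1 had a positive interaction, a share close to the 12.6% of all tested genes, and 5 a negative one, against 11.2% (median -0.44). The 5 were 4 to 5 with 1 library left out, and the call of Lamb1 was lost in 12 of 17 alternatives. The collagen IV gene Col4a1 was at 53.9, 44.3 and 57.4 CPM in knock-out libraries at day 4, against 258, 195 and 187 CPM in the wild-type (-1.80 ± 0.34, edgeR adjusted p = 0.00089), and Col18a1 went the other way (0.99 ± 0.22, edgeR adjusted p = 0.0025).

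Of 24 glycolysis and hypoxia genes 1 had a positive and 5 a negative interaction, against 12.6% and 11.2% of all tested genes (median -0.14). The glucose transporter gene Slc2a3 was at 165, 169 and 187 CPM in knock-out libraries at day 4, against 144, 150.5 and 153 CPM at day 3. It was at 2490.1, 2189.9 and 1776 CPM in wild-type libraries at day 4, against 176, 173 and 165 CPM at day 3, the interaction being -3.43 ± 0.25 (edgeR adjusted p = 3.5e-08). Vegfa, the vascular growth factor, was at 15.1, 15.6 and 16.3 CPM in knock-out libraries at day 4, against 77.8, 66.8 and 62.6 CPM in the wild-type (-1.75 ± 0.16, edgeR adjusted p = 3.8e-08). Ndrg1 narrowed as it rose in the knock-out and fell in the wild-type (2.75 ± 0.31, edgeR adjusted p = 1.2e-06). Of the glycolytic enzymes, Hk1, a hexokinase, was called (-0.69 ± 0.15, edgeR adjusted p = 0.002); Pkm was not, nor was Eno1, whose adjusted p was 0.031 with only the 12 libraries. Of 10 retinoic acid genes 3 had a positive and 3 a negative interaction, against 12.6% and 11.2% of all tested genes (median 0.50); Rarb, a receptor and target, was at 0.363, 0.381 and 0.535 CPM in knock-out libraries at day 4, against 8.16, 5.63 and 3.96 CPM in the wild-type (-3.43 ± 0.54, edgeR adjusted p = 3.9e-05). Dhrs3, a retinaldehyde reductase, changed sign (2.06 ± 0.30, edgeR adjusted p = 1.8e-05). Of 14 extraembryonic endoderm genes 1 had a positive and 6 a negative interaction, against 12.6% and 11.2% of all tested genes (median -1.30). The 6 ran from 3 to 7 with 1 library left out, 3 being the count without replicate 1 of the knock-out at day 3. Lrp2, the endocytic receptor megalin, was the positive one, at 199.9, 169 and 181 CPM in knock-out libraries at day 4, against 5.75, 10.6 and 14.1 CPM in the wild-type (2.10 ± 0.35, edgeR adjusted p = 0.00031). Apoe was at 133, 145 and 149 CPM in knock-out libraries at day 4, against 253, 194 and 160.0 CPM in the wild-type (-1.41 ± 0.16, edgeR adjusted p = 3.8e-06), and Afp and Ttr were too low to be tested.

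Of 6 trophoblast genes 2 had a negative and 0 a positive interaction by edgeR, against 11.2% and 12.6% of all tested genes (0 also at an unadjusted p under 0.05 and by DESeq2; median -0.72, or -1.65 with groups at 0 set to the floor), Ascl2 being at 0.454, 0.619 and 0.584 CPM in knock-out libraries at day 4, against 8.75, 7.4 and 4.91 CPM in the wild-type. Of 6 node and axial mesoderm genes 1, the BMP antagonist Chrd, had a positive interaction (1.44 ± 0.39, edgeR adjusted p = 0.0098). That share was close to the 12.6% of all tested genes. By edgeR 0 had a negative one, against 11.2% (0 also at an unadjusted p under 0.05 and by DESeq2). The list median was 0.02, or -1.03 with the floor. Of 17 fibroblast feeder genes 1, Thy1, was called (1.67 ± 0.44, edgeR adjusted p = 0.0093; list median -0.07). Of 16 cholesterol synthesis genes 1, Cyp51, was called (-0.35 ± 0.09, edgeR adjusted p = 0.0046; list median -0.15). Without replicate 3 of the wild-type at day 4, 3 were called. Over all tested genes 23.8% were called, more than in either of these 2 lists. Of the 10 tested two-cell-like genes and the 10 tested Hox genes, 0 were called by edgeR, at an unadjusted p under 0.05 or by DESeq2. In both lists most groups were at or under the floor of 3 counts, and their medians of 0.94 and 0.57 were each 0.13 with groups at 0 set to that floor.

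The day before, from day 2 to day 3, held a smaller number of differences between the genotypes' steps (10.9% of tested genes called, against 23.8% for the later step). The libraries of day 3 enter both interactions with opposite sign, so the values are given side by side without a count or correlation between them. Eomes had -2.80 (edgeR adjusted p = 4.9e-05) for the earlier step and 1.91 for the later one. Its means were 7.55 ± 1.74 CPM in the knock-out and 15.9 ± 4.66 CPM in the wild-type at day 2 (SD, n = 3 each). Mixl1 had -4.46 (edgeR adjusted p = 0.01) for the earlier step and 4.21 for the later one. Fst had -2.18 (edgeR adjusted p = 0.0078) and 3.70. T had 0.89 (edgeR adjusted p = 0.78), not past the threshold, and 4.68; it was already apart at day 2, with 0.201 ± 0.150 CPM in the knock-out and 30.9 ± 12.5 CPM in the wild-type (SD, n = 3 each). Foxa2 had no difference past the threshold in the earlier step (edgeR adjusted p = 1), and 3.21 in the later one. Nanog had -1.67 (edgeR adjusted p = 7.1e-08) and 2.10, the knock-out having 66.1 ± 3.6 CPM and the wild-type 39.8 ± 2.71 CPM at day 2 (SD, n = 3 each).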

How the data were processed

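The measurement was polyA+ RNA-seq of 24 libraries, 8 groups of 3. Reads were trimmed with Trimmomatic and aligned with HISAT2 to GRCm38.p6, per the submitters' processing notes, with the counter, annotation and strand setting not given in the sources used here. The values the authors deposited are raw counts per gene: 55401 entries, 29207 of them with counts. Names were read from the file or, for 1830 blank ones, from GENCODE M21 by gene ID; 55141 IDs matched and 260 entries had no name.

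Counts were fitted with edgeR 4.0.16 in R 4.3.3 over all 24 libraries with 8 groups, filterByExpr, TMM and robust quasi-likelihood dispersions, and p-values were adjusted by Benjamini-Hochberg over 17144 genes with a threshold of 0.05. Other settings were DESeq2 1.42.0 and its size factors, no filter, only the 12 libraries, a replicate block and each library left out. Genes were named by rule: Setd3, and the 5 largest called interactions in each narrowed or widened direction and 3 crossed, at 10 CPM or more in a group mean and with no overlap of the genotypes on the day that defines the class. Streak and definitive endoderm genes were described, apart from an item that is not reported here. Members of other lists were named as examples with their values known, and not strictly in the planned order of lowest adjusted p first. The comparison and the 29 lists were chosen with earlier results of these data known. Lists share some members, such as Mesp2, Nodal, Sfrp5 and Shisa2, which count in each list that holds them. Counts were also simulated for this comparison (16364 genes tested), with changes in the knock-out at day 4 alone and no other difference between groups. The test found 49.3% of the 67 genes set at 1.5-fold, 82.1% of the 67 set at 2-fold and 100% of the 66 set at 4-fold. It made 6 false calls among 16164 unchanged genes. The changed genes were drawn above a minimum mean count, so these shares do not hold for genes near 0 counts in a group. Each gene was drawn independently, with the same spread in all groups. Unequal spread between groups and shifts of many genes together in a library were not simulated, so the false calls do not cover them. Library totals of 18756912 to 24244958 counts limit precision through counting error at low levels.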

Additional observations from a re-analysis of the deposited data

Results flagged for a closer look

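The step differed between the genotypes by the test of the interaction itself in 4079 genes, with a positive interaction in 2166 and a negative one in 1913. Each gene named by rule, apart from Setd3, stands here for the same reason, with its log2 interaction. Among genes that narrowed from below the values were 5.34 for Wnt8a, 5.26 for Sp5, 4.68 for T, 4.21 for Mixl1 and 4.02 for Lhx1. Among those that narrowed from above they were -2.21 for Mt1, -1.79 for Pak6, -1.69 for Sspn, -1.67 for Mbp and -1.48 for Camk1d. Among those that widened with a lower knock-out they were -11.41 for Hnf4a, -7.87 for Akr1c19, -7.76 for Kcnj5, -7.55 for Robo3 and -6.98 for Sfrp5; the value of Hnf4a is fitted on 0 counts in the knock-out at day 4, depends on the prior count and is no bound. Among those that widened with a higher knock-out they were 3.5 for Vat1l, 2.69 for Fam131b, 2.62 for Nefm, 2.58 for Snph and 2.49 for Slitrk5. Among those that changed sign they were -6.24 for Myocd, -4.56 for Stk32a and -4.51 for Irs4.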

How the results depend on the processing

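Counts of called genes were 4031 with DESeq2's size factors, 3592 without the filter, 4305 with only the 12 libraries, 4238 by DESeq2's Wald test and 3393 to 4054 with each library left out, against 4079; 80.3% to 98.2% of the 4079 genes were shared. The share with a positive interaction was 51.4% to 54.1%. With an interaction of at least 1 on the log2 scale the classes held 169 genes narrowed from below, 110 narrowed from above, 627 widened with a lower and 370 with a higher knock-out, and 54 and 129 that changed sign from below and from above. With each library left out, streak genes with a negative interaction numbered 0 to 1 (Mesp2, lost without replicate 3 of the knock-out at day 3, replicate 2 of the knock-out at day 4, replicate 2 of the wild-type at day 3 or replicate 1 of the wild-type at day 4). Definitive endoderm genes with a positive interaction numbered 1 to 2, the second being Cer1. With a replicate block 4148 genes were called. The main fit did not pair libraries by replicate number. Correlations of same-numbered libraries ran from -0.0914 to 0.165, and 2 of 18 were over 0.1. Both of these were between the wild-type at day 3 and at day 4, with 0.165 in replicate 1 and 0.108 in replicate 3, against 0.011 in replicate 2. Of the 196 genes shown that were called in the interaction, 0 changed direction in an alternative that gave them a value. Genes that were not called did so in some. Other genes given as not called passed the threshold in an alternative. Examples are Lefty1, Mdm2, Epcam and Smad3 with only the 12 libraries, and Bmp4 without replicate 3 of the wild-type at day 4. T ran from 4.40 to 4.97 and Sp5 from 4.87 to 5.66. Depth limits genes near 0 in the knock-out at day 3, such as Cer1, Kdr and Mesp1.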
